A study of Mus musculus with 18 samples.

Results

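The Hox-locus miRNAs mmu-mir-10a, mmu-mir-10b, mmu-mir-196a and mmu-mir-196b, written below without the species prefix, are encoded inside the Hox gene clusters of the mouse. These 4 of the 1006 miRNA entries in the deposited counts were chosen by their place in the Hox clusters and by their counts, low in control libraries and raised in both knockouts of the study. Their difference from control is therefore a description and not a finding. All 4 were among the 273 entries that passed the filter on low counts. The values come from small RNA sequencing of Baf3 cells, a murine pro-B line kept in medium with interleukin-3. Every group was grown as cells that carried fluorescent reporters for mutated miR-15a and miR-16 and was stably transduced with Cas9 and 1 guide RNA, then selected with puromycin. The control genotype (Rag1_KO in the labels) received guides against Rag1, which has no part in making miRNAs. The SAFB genotype (Safb1 KO, Safb2 KO) received guides that target both genes, and the ERH genotype (Erh KO) received guides against Erh. With 2 guides per genotype there were 6 guide populations. Every population was sequenced as 3 libraries that carry batch numbers 1 to 3 in the labels, so n was 6 per genotype and 18 in all.

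The populations are polyclonal, and the knockout cells were sorted for derepression of the miR-15a reporter, so they had been selected for weak miR-15a activity. How control cells were sorted is not given in the labels. The 3 libraries of a population share its editing and its sort. Nothing in the labels says whether they came from separate cultures, so p-values measure the spread between these libraries. In bulk libraries, a higher level per cell and a larger share of cells that make a miRNA cannot be told apart.

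miRNAs are cut from hairpins in long primary transcripts, first by the nuclear Microprocessor and then by Dicer, and the seed at their 5′ end directs them to target mRNAs. SAFB proteins and ERH bind the Microprocessor and help it to cut poor hairpins that lie beside good ones. mir-10 and mir-196 sit between or inside Hox genes, which set position along the body axis, and each family represses Hox mRNAs among its targets. In blood, Hox genes and the miRNAs inside their clusters are known for activity in early progenitors and in some leukaemias.

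The mature sequences show why the members form pairs. Sequences are from RefSeq tables of GRCm38.p6, which held all 4 members, and capitals mark the seed, bases 2 to 8 from the 5′ end.
miR-10a-5p: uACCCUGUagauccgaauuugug
miR-10b-5p: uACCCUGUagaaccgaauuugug
miR-196a-5p: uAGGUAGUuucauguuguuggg
miR-196b-5p: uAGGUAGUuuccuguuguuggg
miR-99a-5p: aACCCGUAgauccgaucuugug
let-7a-5p: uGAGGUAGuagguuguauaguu
The mir-10 mature forms are 23 bases long and differ by 1 substitution, U12A, with positions counted from 1 at the 5′ end of miR-10a. The mir-196 forms are 22 bases long and differ by 1 substitution, A12C, counted in the same way from miR-196a. Of 1679 mature names in the table, 2 carry the mir-10 seed and 2 carry the mir-196 seed, in each case the pair itself. miR-99a is a sequence relative of mir-10 whose seed shares a run of 4 bases, ACCC, with that of miR-10a. The let-7 seed and the mir-196 seed share a run of 6 bases, AGGUAG, set off by 1 position, so the 2 families are not the same seed family. How reads that match both forms of a pair were assigned was not given in the sources used here, so the split within a pair is uncertain. The entries name no arm of the hairpin, and whether each sums both arms was not given either, so levels and ratios may include reads of the 3′ arm, whose sequences are not shown.

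The members come from 5 genes in 4 Hox clusters, placed here with GENCODE M21 on GRCm38, a build that may not be the one the authors used. Mir10a lies at chr11:96317165-96317274 on the plus strand, in no annotated gene and 993 bp from Hoxb4. Mir10b lies at chr2:74726070-74726137 on the plus strand, in an intron of Hoxd3 and of Hoxd4. Mir196a-1 lies at chr11:96265164-96265265 on the plus strand, in no annotated gene and 6192 bp from Hoxb9. Mir196a-2 lies at chr15:102973350-102973434 on the plus strand, in an intron of the Hoxc5 model, between Hoxc10 at 1457 bp and Hoxc9 at 3005 bp. Mir196b lies at chr6:52230081-52230165 on the minus strand, inside an exon of a Hoxa9 transcript and 1032 bp from Hoxa10. The entry mir-196a holds both Mir196a genes, so the data do not tell which of them gave the reads. None of the 5 has another annotated miRNA gene within 10 kb, and the closest pair, Mir10a and Mir196a-1, is 51900 bp apart. In this they differ from mir-15a and mir-16-1, the neighbouring hairpins on 1 transcript that the reporters of the study were built on.

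The hairpins outside exons are shown with the mature 5′ form in capitals, because the Microprocessor recognises the hairpin and not the mature form.
Mir10a: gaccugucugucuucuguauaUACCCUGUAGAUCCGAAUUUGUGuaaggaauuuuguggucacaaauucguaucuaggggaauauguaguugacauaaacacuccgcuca
Mir10b: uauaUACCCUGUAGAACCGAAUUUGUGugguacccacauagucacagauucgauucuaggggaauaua
Mir196a-1: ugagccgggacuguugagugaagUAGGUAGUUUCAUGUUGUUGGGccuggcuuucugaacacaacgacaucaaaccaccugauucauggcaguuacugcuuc
Mir196a-2: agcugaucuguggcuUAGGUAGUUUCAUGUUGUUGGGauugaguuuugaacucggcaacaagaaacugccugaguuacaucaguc
Folding with RNAfold gave Mir10a a minimum free energy of -0.31 kcal/mol per base, and 7.42% of 229 hairpins of tested miRNAs were less stable by that measure. The same share was 22.7% for Mir10b at -0.36, 20.5% for Mir196a-1 at -0.35 and 47.6% for Mir196b at -0.42 kcal/mol per base. Mir196a-2, at -0.53 kcal/mol per base, was more stable than 85.2% of those hairpins, so the mir-196a genes lie on opposite sides of the range. The annotated hairpins have different amounts of flank, which enters this value.

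Libraries held 2699323 to 4470073 miRNA counts, and the 4 synthetic spike-ins added to the RNA took 0.165% to 0.366% of all counts. Levels are given as CPM, which is read counts scaled to a common library size by trimmed mean of M-values (TMM) and not a share of a library's reads. The members were minor parts of these libraries. Together they summed to 41.2 to 96.0 CPM in control, 441.1 to 876.4 in SAFB and 1392 to 2480 in ERH. Blood cell markers summed to 150700 to 177100 CPM in control, 155000 to 172200 in SAFB and 126900 to 159300 in ERH, the highest of the marker lists. That sum was mostly mir-142a, and of 7 blood markers tested, SAFB had 2 called higher with 3 lower, while ERH had 1 higher with 4 lower. Over all tested miRNAs, 30.8% were called higher and 25.3% lower in SAFB, and 26.4% were called higher and 27.5% lower in ERH. A list of 9 nerve cell markers, mostly mir-128, summed to 2159 to 2606 CPM in control, 2678 to 3256 in SAFB and 3005 to 4711 in ERH. Of its 6 tested members, 5 were called higher and 1 lower in each knockout, where 30.8% of all tested miRNAs were called higher in SAFB and 26.4% in ERH. Among the 5, mir-129 and mir-153 had a control median of 0 and at most 17 and 28 counts in any library, so they passed the filter on low counts only where they were high. Of the 4 others tested, 3 were called higher and 1, mir-219a, lower in each knockout. mir-137 and mir-383 were at 0 in all 18 libraries and mir-124 never passed 6 counts. Epithelial markers summed to 145.3 to 202.6, 198.3 to 229.9 and 153.6 to 192.4 CPM in control, SAFB and ERH. mir-375 also had a control median of 0 and passed the filter only where it was high, and of the 5 other epithelial markers tested, 3 were called higher in SAFB and 0 in ERH. The connective tissue and vessel list, mostly mir-126a, summed to 4120 to 4626 CPM in control, 3166 to 3795 in SAFB and 2973 to 3497 in ERH, with 1 of 4 tested called higher and 1 lower in SAFB and 1 lower in ERH. Muscle and liver markers summed to at most 6.40 and 34.15 CPM in any library. The 1 liver marker, mir-122, was called higher in ERH than in control and was not called in the other comparisons. The 1 muscle marker tested was not called in any comparison. Between ERH and SAFB, 2 blood markers were called higher and 3 lower of 7 tested, 4 nerve markers higher and 0 lower of 6 (2 of 4 without mir-129 and mir-153), and 0 epithelial markers higher and 3 lower of 6, where 23.8% of all tested miRNAs were called higher and 15.8% lower. The part of these lists in the levels of the Hox-locus miRNAs was not tested.

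mir-10a, which lies beside Hoxb4, had the most reads of the members in every genotype. Its lowest, median and highest levels were 19.0, 31.5 and 48.5 CPM in control, 192.7, 334.0 and 529.9 CPM in SAFB, and 716.9, 1014 and 1512 CPM in ERH. Genotypes did not overlap, and the order was control, SAFB, ERH. The mean level was 32.0 ± 11.2 CPM for control, 348.6 ± 116.5 CPM for SAFB and 1018 ± 285.0 CPM for ERH (n = 6 each, SD).

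mir-10b, the Hoxd member with the same seed, was the rarest in control and rested there on 17 to 41 counts per library. Its lowest, median and highest levels were 4.48, 8.09 and 14.8 CPM in control, 47.1, 87.7 and 176.1 CPM in SAFB, and 179.8, 192.3 and 268.5 CPM in ERH. The gap between the highest SAFB library and the lowest ERH library was narrow, 176.1 against 179.8 CPM, although no library crossed it.

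mir-196a, made from the Hoxb and Hoxc clusters, ran from 6.96 to 21.6 CPM in control with a median of 8.58. In SAFB it ran from 67.1 to 156.8 CPM with a median of 75.7, and in ERH from 179.5 to 295.8 CPM with a median of 231.0. In both control and SAFB, 1 guide 1 library of batch 1 lay far above the other 5, at 21.6 CPM against at most 9.46 in control and at 156.8 CPM against at most 92.1 in SAFB.

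mir-196b, made from the Hoxa cluster, ran from 8.03 to 18.8 CPM in control with a median of 11.8. It ran from 96.8 to 186.1 CPM in SAFB with a median of 111.1, and from 221.4 to 432.6 CPM in ERH with a median of 253.6. As for the other members, no SAFB library reached the lowest ERH library and no control library reached the lowest SAFB library.

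**Figure D1:**
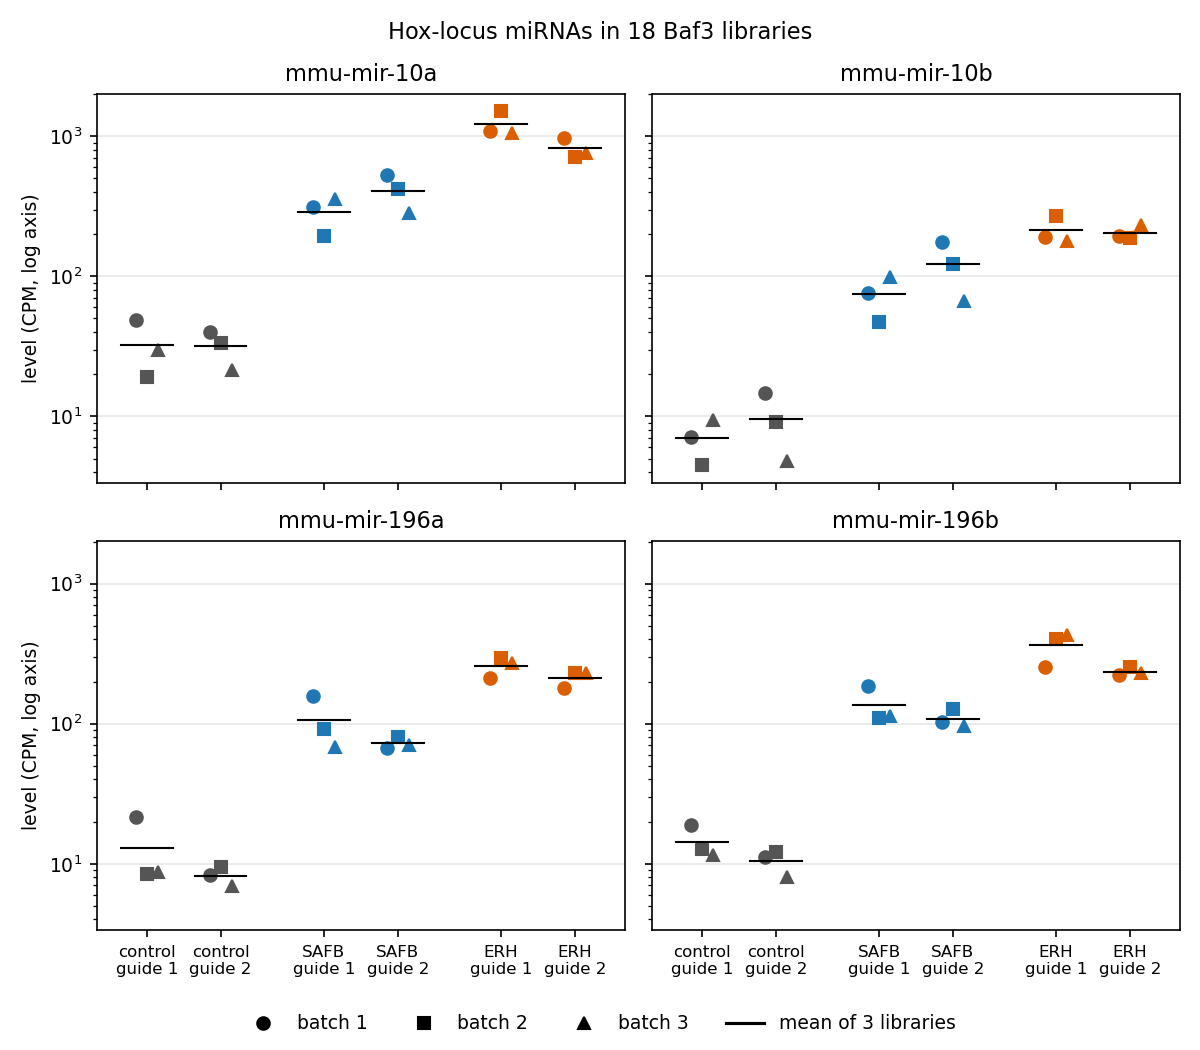
Level of each Hox-locus miRNA in CPM (log axis) in the 18 libraries, by genotype and guide, with marker shape for the batch and a line at the mean of 3 libraries. For each member the control libraries lie lowest and the ERH libraries highest, with the closest approach for mir-10b at 176.1 CPM in SAFB and 179.8 CPM in ERH.

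As a description of what chose them, the log2 fold changes from control in SAFB were 3.46 (SE 0.25) for mir-10a, 3.59 (SE 0.30) for mir-10b, 3.07 (SE 0.26) for mir-196a and 3.30 (SE 0.23) for mir-196b. In ERH they were 5.00 (SE 0.27), 4.69 (SE 0.30), 4.48 (SE 0.26) and 4.59 (SE 0.23) in the same order. These are 8.41-fold to 12.1-fold in SAFB and 22.3-fold to 32.1-fold in ERH. Both comparisons share the control libraries. Of the 273 tested miRNAs, 30.8% were called higher and 25.3% lower in SAFB (56% in either direction), and 26.4% were called higher and 27.5% lower in ERH (53.8% in either direction), while 19.4% had all 6 knockout libraries above all 6 control libraries in each comparison. From control, the members stood between rank 6 and rank 25 of 273 for SAFB and between rank 6 and rank 21 for ERH, counted from the largest rise, so other miRNAs rose by more.

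The rule that picked the members does not name the step from SAFB to ERH, but they were picked with earlier results of these data known, so the p-values below are not independent of that choice. In this step all 4 were higher in ERH. In edgeR's quasi-likelihood test with Benjamini-Hochberg adjustment over 273 miRNAs, mir-10a was 2.92-fold higher (log2 1.55, SE 0.22, adjusted p = 9.0e-06) and mir-10b 2.13-fold higher (log2 1.09, SE 0.24, adjusted p = 0.00095). By the same edgeR test mir-196a was 2.66-fold higher (log2 1.41, SE 0.22, adjusted p = 1.8e-05) and mir-196b 2.44-fold higher (log2 1.29, SE 0.19, adjusted p = 1.3e-05). All 6 ERH libraries lay above all 6 SAFB libraries for each member. Over all tested miRNAs, 23.8% were called higher and 15.8% lower in ERH than in SAFB (39.6% in either direction), and 14.3% had such a gap without overlap. The median log2 fold change was 1.35 over the members and 0.042 over all tested miRNAs.

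These differences held in sign within each batch and each guide. Between ERH and SAFB libraries of 1 batch, the mean log2 difference ranged from 1.35 to 1.87 for mir-10a, 0.73 to 1.57 for mir-10b, 0.93 to 1.85 for mir-196a and 0.77 to 1.60 for mir-196b. Over the 4 pairs of an ERH guide with a SAFB guide, it ranged from 1.03 to 2.11 for mir-10a, 0.85 to 1.56 for mir-10b, 1.10 to 1.83 for mir-196a and 0.83 to 1.71 for mir-196b. The size therefore depended on which populations were set against each other.

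The scaling of libraries moved the calls and the members. With TMM, 65 miRNAs were called higher and 43 lower in ERH than in SAFB. With total counts the split was 115 to 8, and with spike-in scaling 111 to 1. These settings moved the median of all tested miRNAs to 0.31 and 0.57 on the log2 scale. With it, mir-10a went from 1.55 with TMM to 1.81 with total counts and 2.03 with spike-ins, and mir-10b from 1.09 to 1.37 and 1.61. Scaling shifts all miRNAs by nearly the same amount, so relative to that median mir-10a remained at 1.46 to 1.51 and mir-10b at 1.04 to 1.06, which is no sign of stability. For ERH against control the split was 72 higher to 75 lower with TMM, 108 to 33 with total counts and 72 to 19 with spike-ins, and for SAFB against control it was 84 to 69, 90 to 66 and 44 to 58.

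**Figure D2:**
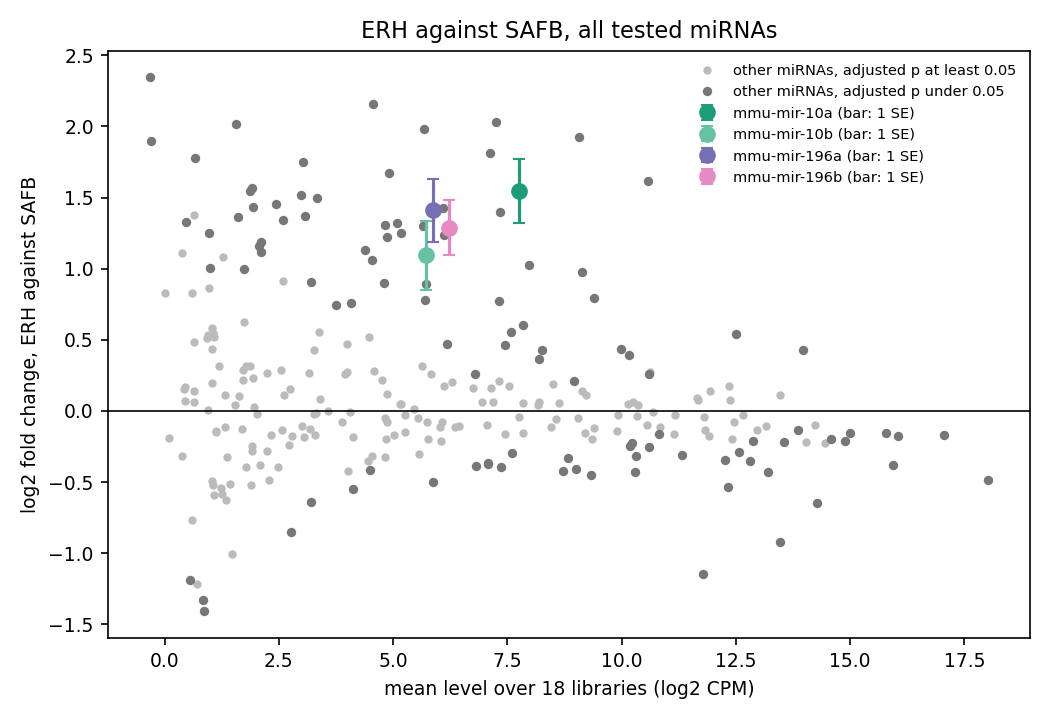
Log2 fold change of ERH against SAFB (vertical) by mean level over 18 libraries in log2 CPM (horizontal) for the 273 tested miRNAs, with the 4 Hox-locus miRNAs in colour and bars of 1 SE. The members lie between 1.09 and 1.55, in the upper part of the cloud and with other called miRNAs around and above them.

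Guides of the same genotype were then compared, since each guide made its own population. No member was called in any genotype by edgeR's quasi-likelihood test with Benjamini-Hochberg adjustment. Over all tested miRNAs, that test called 0 in control and 0 in SAFB, with 7 and 10 at an unadjusted p under 0.05, and it called 1 in ERH (0.366%), mir-218, named after its value was seen. In SAFB, mir-10b was 0.72 higher with guide 2 on the log2 scale (SE 0.32, adjusted p = 0.79) and mir-10a 0.52 higher (SE 0.28, adjusted p = 0.82). The mir-196 values had the opposite sign there, -0.54 for mir-196a (adjusted p = 0.79, SE 0.28) and -0.32 for mir-196b (adjusted p = 0.87, SE 0.22). Those mir-196 values rested largely on the batch 1 library of SAFB guide 1: without it they were -0.14 and -0.039. The mir-10a value was lowest without the batch 1 library of guide 2, at 0.26, and so was the mir-10b value, at 0.31. In ERH the values of guide 2 against guide 1 were -0.57 for mir-10a, -0.063 for mir-10b, -0.28 for mir-196a and -0.62 for mir-196b, with adjusted p of 0.56 or more. In control they were -0.045, 0.44, -0.66 and -0.48, each with an adjusted p of 0.97 or more. These control values also rested on single libraries. Without the batch 1 library of control guide 1, mir-196a was at -0.042 and mir-196b at -0.21. Without the batch 1 library of control guide 2, mir-10b was at 0.0076. With spike-in scaling, 2 of the control values and 3 of the ERH values turned to the other sign, where that scaling moved the median of all tested miRNAs to 0.63 in both comparisons. Without the filter on low counts, mir-10a in ERH passed the threshold, with an adjusted p of 0.027 and a log2 difference of -0.56.

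The library values behind these SAFB differences were as follows. With SAFB guide 1, mir-10a was at 310.9, 192.7 and 357.2 CPM in batches 1, 2 and 3, and mir-196a at 156.8, 92.1 and 67.8 CPM. With SAFB guide 2, mir-10a was at 529.9, 417.9 and 282.7 CPM and mir-196a at 67.1, 80.7 and 70.7 CPM. The library with the most mir-10a was thus the one with the least mir-196a among the 6.

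Ratios of counts within a library need no scaling between libraries. The log2 ratio of mir-10a to mir-10b averaged 1.97 ± 0.46 for control, 1.89 ± 0.19 for SAFB and 2.26 ± 0.35 for ERH (n = 6 each, SD), which is a geometric mean ratio of 3.92, 3.71 and 4.77. ERH exceeded SAFB by 0.36 in an exact two-sided permutation test (p = 0.048, adjusted p = 0.095 over the 2 planned ratios), so the difference did not pass after adjustment. ERH guide 1 had the higher values: its libraries stood at 2.50, 2.49 and 2.54, while those of guide 2 stood at 2.34, 1.92 and 1.73. Without ERH guide 1 the difference was 0.11, without ERH guide 2 it was 0.62 with an adjusted exact permutation p of 0.024, and without the batch 3 library of ERH guide 2 it was 0.47 with an adjusted exact permutation p of 0.030. Within batches 1, 2 and 3 it was 0.61, 0.31 and 0.18. Libraries were permuted within batches as a paired check, and the adjusted exact p was then 0.17.

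The log2 ratio of mir-196b to mir-196a averaged 0.29 ± 0.27 for control, 0.49 ± 0.21 for SAFB and 0.30 ± 0.24 for ERH (n = 6 each, SD). The difference of ERH from SAFB was -0.19 (exact two-sided permutation p = 0.17, adjusted p = 0.17). It was -0.16, -0.15 and -0.25 in batches 1, 2 and 3. Its size depended on the population left out: it was -0.037 without ERH guide 2, -0.34 without ERH guide 1, -0.11 without SAFB guide 2 and -0.27 without SAFB guide 1, with an adjusted exact permutation p of 0.12 or more.

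A ratio across the families, added after the data had been seen, compared summed mir-10 with summed mir-196 counts. Its log2 value averaged 0.80 ± 0.46 for control, 1.04 ± 0.72 for SAFB and 1.19 ± 0.30 for ERH (n = 6 each, SD), so mir-10 exceeded mir-196 in all 18 libraries. The difference of ERH from SAFB was 0.15 (exact two-sided permutation p = 0.64). SAFB libraries spread most, from 0.17 to 2.05. By batch they stood at 0.17, 0.25 and 1.34 for guide 1 and at 2.05, 1.38 and 1.06 for guide 2, a mean difference of 0.91 between guides (exact permutation p = 0.20, adjusted p = 0.45 over 9 guide comparisons of ratios). With 3 libraries against 3 that test cannot go below 0.10. The sign of the ERH difference depended on SAFB guide 1: it was -0.023 without its batch 1 library, -0.0075 without its batch 2 library and -0.30 without the population. Between batches it was 0.39, 0.31 and -0.24.

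**Figure D3:**
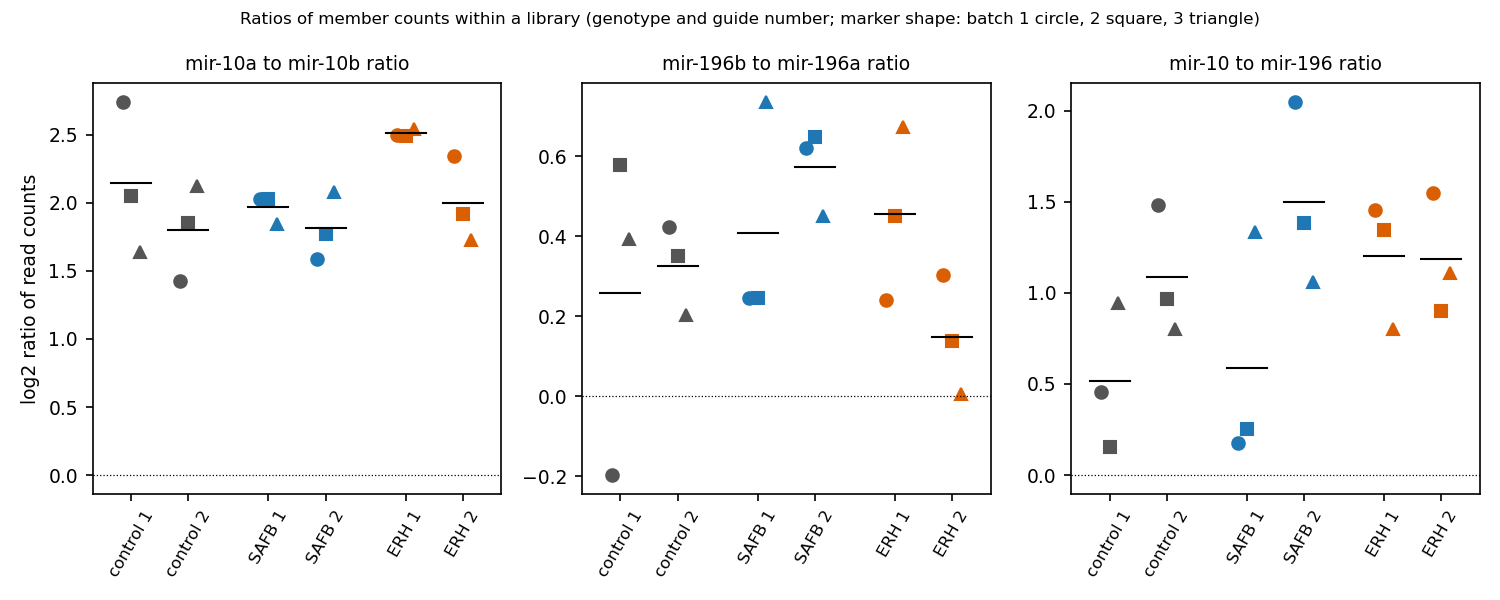
Log2 ratio of read counts within each library for mir-10a to mir-10b (left), mir-196b to mir-196a (centre) and summed mir-10 to summed mir-196 (right), by genotype and guide, with a line at the mean of 3 libraries and marker shape for the batch. The right panel shows the widest spread in SAFB, from 0.17 to 2.05.

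Whether members moved together from library to library was asked within each genotype, over 6 libraries, since across genotypes the choice of members sets the answer. Those 6 libraries are 2 guide populations, so r and its permutation p mix the difference between guides with movement from library to library. In SAFB the guide differences were 0.52 and 0.72 for mir-10a and mir-10b but -0.54 and -0.32 for mir-196a and mir-196b. Values of r with the guide difference taken out were not tested. Over 18 pairs of members and genotypes, no Pearson r had an adjusted p under 0.05, and 4 had an unadjusted exact p under 0.05. Within the mir-10 pair r was 0.70 for control (exact p = 0.11, adjusted p = 0.33), 0.99 for SAFB and 0.47 for ERH (exact p = 0.34, adjusted p = 0.60). Spearman rho for control and ERH was 0.60 and 0.31 (adjusted exact p = 0.62 and 0.78). The SAFB value had an exact permutation p of 0.0028 over 720 pairings and an adjusted p of 0.05, which was 0.025 with total counts or with spike-ins. The value of r was no higher there, at 0.988 with total counts and 0.986 with spike-ins against 0.990 with TMM. With 720 pairings such p-values move in coarse steps. Its Spearman rho was 1.0, also with an adjusted exact p of 0.05. Within the mir-196 pair r was 0.91 in control (exact p = 0.013, adjusted p = 0.11), 0.91 in SAFB (exact p = 0.049, adjusted p = 0.22) and 0.87 in ERH (exact p = 0.018, adjusted p = 0.11), with Spearman rho of 0.83, 0.60 and 0.89 (adjusted exact p = 0.35, 0.62 and 0.30). The same measure between a member and the other tested miRNAs had a median from -0.052 to 0.18. Its upper quartile ran from 0.27 for mir-196a in ERH to 0.52 for mir-10a in control.

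Between the families r ranged from 0.040 to 0.71 in control, from -0.40 to -0.013 in SAFB and from 0.21 to 0.64 in ERH, with no adjusted exact p below 0.265. Spearman rho between the families ran from -0.31 to 0.54, from -0.60 to 0.14 and from -0.37 to 0.37 in the same order, with no adjusted exact p below 0.62. In SAFB all 4 values of r between families were below 0 with TMM, whereas 2 of the 4 values of rho were 0.14, and with spike-in scaling 3 values of r turned to 0.096, 0.42 and 0.31. The SAFB values between families include the guide differences, which had opposite signs in mir-10 and mir-196. Without the 2 libraries farthest from the median of the first member, r of the mir-10 pair over the remaining 4 was 0.98 in control, up from 0.70, and 0.996 in SAFB, close to the value over 6. In ERH it went to -0.94, so the control and ERH values depended on those libraries. The mir-196 pair gave 0.28, 0.70 and 0.90 in control, SAFB and ERH after the same step, so the control value also rested on 2 libraries. Each batch holds 2 libraries of a genotype, and values centred on batch means are given as a description. They rest on 3 differences between guides, so the mean gap between guides stays in them. After that centring, added once the data had been seen, the mir-10 pair had an r of 0.57 for control, 0.99 for SAFB and 0.52 for ERH. For the mir-196 pair r was then 0.92, 0.88 and 0.88. Between the families it ran from -0.39 to 0.48 in control, from -0.75 to -0.27 in SAFB and from 0.015 to 0.90 in ERH.

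Libraries were also ranked within each population. The library with the most mir-10a also had the most mir-10b in 4 of 6 populations. The library with the most mir-196a also had the most mir-196b in 5 of 6. No population had 1 library that was highest for all 4 members. In 4 of the 18 libraries both mir-10 members lay on one side of their population means and both mir-196 members on the other: batch 3 of SAFB guide 1, batch 1 of SAFB guide 2, batch 3 of ERH guide 1 and batch 2 of ERH guide 2. In most of the remaining libraries all 4 members lay on the same side, as in every batch of control guide 2.

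**Figure D4:**
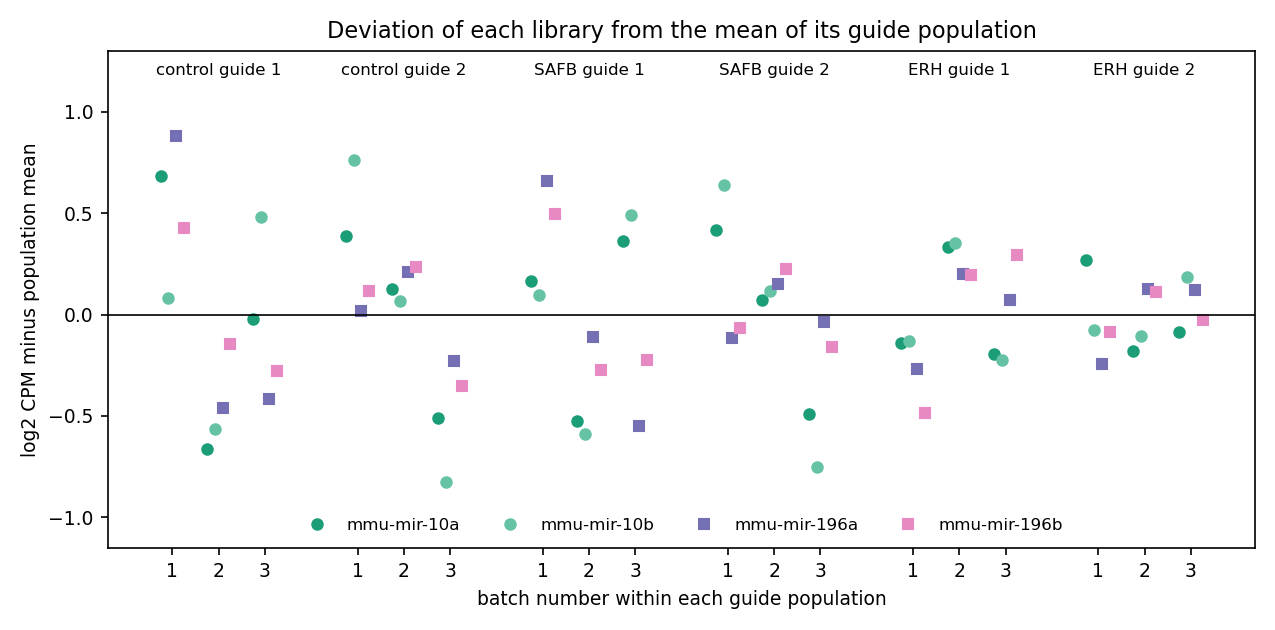
Deviation of each library from the mean log2 CPM of its guide population, for the 4 Hox-locus miRNAs, by population and batch number. Circles for the mir-10 pair lie close together in most libraries, as do squares for the mir-196 pair. The pairs lie on opposite sides of 0 in 4 of the 18 libraries, 2 of SAFB and 2 of ERH. In most of the remaining libraries all 4 members lie on the same side, and no library is highest for all 4 members of its population.

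By Pearson r of log2 CPM with mir-10a over the 18 libraries, among 159 other miRNAs with a mean of at least 20 CPM, mir-10b came first at 0.986. mir-125b (0.985), mir-218 (0.981), mir-9 (0.975), mir-99a (0.975) and mir-148a (0.974) were the 5 others most like it, with mir-196b at rank 4 (0.978) and mir-196a at rank 10 (0.969). The median over the 159 was -0.29. The 18 points share the 3 genotypes, and these values are a description. In deviations from population means, mir-10b was again first at 0.817, followed by mir-9 (0.785), mir-218 (0.742), mir-99a (0.736), mir-378b (0.667) and mir-125b (0.597). The mir-196 members fell to rank 17 (mir-196b, 0.498) and rank 25 (mir-196a, 0.427), against a median of 0.134. mir-9 and mir-218, both known from nerve cells, rose from means of 9.06 and 22.3 CPM in control to 65.9 and 214.4 in SAFB and 259.7 and 876.8 in ERH. Of the 6 nerve markers tested, 5 were called higher and 1 lower in each knockout. The lower one, mir-219a, had medians of 335.9 CPM in control, 269.5 in SAFB and 268.5 in ERH.

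A list of related miRNAs was read beside the members. mir-615, the other miRNA of the Hoxc cluster, lies in an intron of the Hoxc5 model, and was at 0 to 5 counts in control, 13 to 51 in SAFB and 44 to 109 in ERH. With so few control counts it passed the filter only through the knockout populations, so its log2 differences from control, 3.62 (SE 0.45) in SAFB and 4.74 (SE 0.43) in ERH, are given without a test. Between ERH and SAFB its log2 fold change was 1.12 (adjusted p = 0.0042, SE 0.30) by edgeR's quasi-likelihood test with Benjamini-Hochberg adjustment. Of the 5 sequence relatives of mir-10, mir-99a, mir-99b, mir-125a and mir-125b passed the filter, while mir-100 never passed 3 counts. mir-99a had 2 to 6 counts in control and passed only through the knockout populations. The log2 differences of these 4 from control, 3.14 to 3.63 in SAFB and 4.44 to 5.13 in ERH, are a description. Between ERH and SAFB all 4 were called higher by the same edgeR test, with log2 fold changes of 1.06 to 1.50 (adjusted p of 7.2e-05 or less). Over all tested miRNAs, 23.8% were called higher in that comparison. These ranges overlap those of the members in every comparison.

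The let-7 family and mir-98, which share part of the mir-196 seed and act in differentiation, went mostly the other way with TMM scaling. The list did not include let-7j, which was also measured. Of 9 tested, let-7e rose in SAFB by 0.48, 5 fell and 3 were not called, where 30.8% of all tested miRNAs were called higher and 25.3% lower. With spike-in scaling the SAFB counts were 0 higher, 3 lower and 6 not called, so let-7e was no longer called. In ERH with TMM, let-7e rose by 0.74 and 8 fell, from -0.25 for let-7i to -2.81 for mir-98, where 26.4% of all were called higher and 27.5% lower. For ERH against control, total counts and spike-ins each gave 1 of the 9 called higher, 2 lower and 6 not called. Over all tested miRNAs, 39.6% were then called higher and 12.1% lower with total counts, and 26.4% and 6.96% with spike-ins. Between ERH and SAFB let-7e rose by 0.26, 5 fell and 3 were not called with TMM, beside 23.8% higher and 15.8% lower over all. With total counts that direction turned, to 5 of the 9 called higher and 0 lower, and with spike-ins 1 was called higher and 0 lower. The median over the 9 was -0.20, -0.34 and -0.15 in these comparisons with TMM, against 0.0083, -0.061 and 0.042 over all tested miRNAs.

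The counts of the whole related list also depended on scaling. Without mir-615 and mir-99a, whose control counts were few, 12 were tested. For ERH against control, 4 of the 12 were called higher and 8 lower with TMM. With total counts 4 were called higher and 2 lower, where 39.6% and 12.1% of all tested miRNAs were. With spike-ins the list gave the same counts, 4 and 2, beside 26.4% and 6.96% over all. Between ERH and SAFB, 6 of the 14 related miRNAs tested were called higher and 5 lower with TMM, against 23.8% and 15.8% over all. With total counts 10 were called higher and 0 lower, against 42.1% and 2.93%, and with spike-ins 6 higher and 0 lower, against 40.7% and 0.366%. This list was chosen with earlier results of these data known, so its counts are a description.

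**Figure D5:**
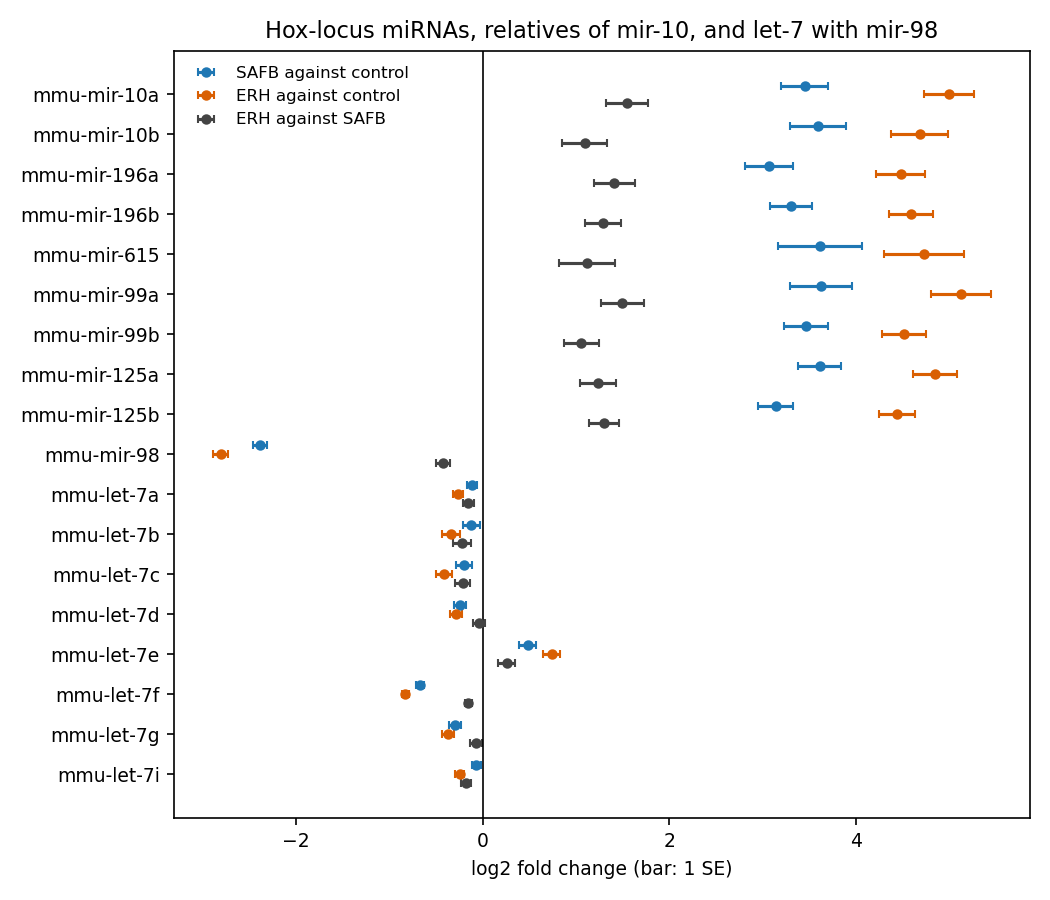
Log2 fold changes with bars of 1 SE for the 4 Hox-locus miRNAs, mir-615, the relatives of mir-10 and the let-7 family with mir-98, in 3 comparisons. The first 9 miRNAs all lie above 0, between 1.06 and 5.13, and the let-7 family with mir-98 lies between -2.81 and 0.74.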

How the data were processed

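The deposited file holds whole-number read counts per miRNA entry, not normalized by the authors. SAMtools is named in the submitters' processing notes. The aligner, the counter, the genome build, the handling of reads that match several entries and the collapsing of molecular identifiers were not given in the sources used here, so intervals and errors cover reads and not molecules. Per the labels' protocols, 4 spike-ins were added to total RNA before the libraries were made.

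From these counts, edgeR 4.0.16 in R 4.3.3 (limma 3.58.1) kept 273 of 1006 entries (filterByExpr by population, minimum count 10), scaled by TMM and tested with the quasi-likelihood method, with 1 mean per genotype or per guide population over all 18 libraries, Benjamini-Hochberg adjustment and a threshold of 0.05. Spike-ins stayed out of library sizes. CPM used TMM sizes, with a prior count of 0.5 on the log2 scale. Ratios had 0.5 added to each count. Permutation tests used SciPy 1.17.1 in Python 3.11.15, and DESeq2 1.42.0 was an alternative. RNAfold 2.7.2 folded the RefSeq hairpins. The fit was run on simulated libraries, where it recovered 93.2% of 2-fold and 100% of 4-fold changes, with 2.11% false among calls. Those libraries had 1 fixed spread for all miRNAs and no difference between guide populations. That run therefore says nothing about the spread between populations here.

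The batch number in the labels was taken as a pairing of libraries. Over tested miRNAs, deviations from the population mean had an average correlation of 0.024 between libraries of the same batch (45 pairs) and of -0.012 otherwise (90 pairs), or 0.093 and -0.046 where only entries averaging 100 counts or more were used. In no population were 2 libraries alike within counting error (chi-square over its degrees of freedom from 33.0 to 191.7, 18 pairs), so none was a repeat count of another. That check uses counting noise alone and cannot tell separate cultures from separate preparations of 1 culture. Each library was taken as 1 replicate.

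The miRNAs named were the 4 members, the related list, the 5 most like mir-10a by each measure of likeness, and markers by their summed level. Members and lists were chosen with earlier results of these data known.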

Additional observations from a re-analysis of the deposited data

Results flagged for a closer look

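In control, mir-196a in the batch 1 library of guide 1 stood at 4.44 log2 CPM, against 2.83 to 3.26 in the other 5 libraries, which leaves it 0.730 of the whole range away from the nearest. In SAFB, mir-196a in the batch 1 library of guide 1 stood at 7.29 log2 CPM, with the other 5 at 6.07 to 6.53 and a gap that takes 0.627 of the range. Dixon's critical value for 6 libraries is 0.625, so the second only just passed it. Of 21 groups of 6 libraries examined, these 2 had a library apart, and chance gives about 1 in 20. In both libraries mir-196b was also the highest of its population.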

How the results depend on the processing

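The 4 members kept their direction and call for ERH against SAFB in all 96 values from the alternatives run, with log2 fold changes of 1.24 to 2.03 for mir-10a, 0.71 to 1.61 for mir-10b, 1.14 to 1.92 for mir-196a and 0.95 to 1.77 for mir-196b, and a largest adjusted p of 0.038, for mir-10b. The values against control also kept their direction. With the replicate block, ERH against SAFB called 110 miRNAs instead of 108, and pairing by batch changed no call for a member.

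ERH against SAFB called fewest, 78, without ERH guide 1, and its count moved by less than 1.5 times in every alternative run. Spike-in scaling gave 91 called for ERH against control, 6 of the related list between ERH and SAFB, 96 between control guides and 110 between ERH guides, where the median of all tested miRNAs moved to 0.63. Under it the guide values turned to 0.60 (mir-10a) and 0.18 (mir-196b) in control, and to 0.033 (mir-10a), 0.51 (mir-10b) and 0.30 (mir-196a) in ERH. The related list, with mir-615 and mir-99a included, had 14 calls for ERH against control with TMM and 8 with total counts or spike-ins, and 7 between ERH and SAFB without ERH guide 1. ERH guides gave 4 calls without the filter and 1 to 2 with each library left out. Leaving out 1 library turned mir-10a between control guides to 0.41 (without guide 1, batch 1) and 0.20 (guide 2, batch 3) and mir-10b between ERH guides to 0.12 (guide 1, batch 2), in ranges of -0.27 to 0.41 and -0.20 to 0.12. The causes were not tested.

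The mir-10a to mir-10b ratio ran from 0.30 to 0.47 with each library left out and was 0.62 without ERH guide 2. The mir-10 to mir-196 ratio ran from -0.023 to 0.35 and was -0.30 without SAFB guide 1. Total counts and spike-ins each gave 1 pair that passed the threshold, mir-10a with mir-10b in SAFB, although its r was no higher than with TMM. Correlations changed sign for mir-10b with mir-196a in control (-0.0052, total counts), for mir-10b with mir-196a and mir-196b in control after centring on batch means as a replicate block (-0.39 and -0.23), for 3 pairs across families in SAFB with spike-ins (0.096, 0.42 and 0.31), and without the 2 farthest libraries for mir-10a and mir-10b with mir-196b in SAFB (0.066 and 0.010), and in ERH for mir-10b with mir-10a (-0.94), mir-196a (-0.90) and mir-196b (-0.98). mir-10b had only 17 to 41 counts per control library, which limits its precision there.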
